A study of Rattus norvegicus with 30 samples.

Results

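Small RNA of urinary exosomes was compared between rats after bilateral ischemia-reperfusion injury of the kidneys (IRI) and sham rats at day 14 after the surgery, the last urine collection of the study. All 79 miRNAs listed for that day were taken, abundant and rare alike, in 3 IRI libraries (rats 1, 2 and 13) and 3 sham libraries (rats 3, 6 and 9), which are 6 of the 30 libraries of the series. The animals were male Sprague-Dawley rats bought at 10 weeks of age. In the IRI group both renal vascular pedicles were clamped and the kidneys then reperfused, and in the sham group the operation was done without clamping. No transgene or drug is named for either group. The same 6 rats also gave urine at days 1, 2, 3 and 7, so day 14 holds no new animals.

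Exosomes are vesicles of the endocytic pathway that epithelial cells of the nephron and the urinary tract release into urine, and the miRNAs they carry are called exo-miRs here. A miRNA binds its target mRNAs mainly through its seed, the bases from position 2 to position 8, so members of a family that share a seed are expected to share targets. After ischemia the tubular epithelium is lost, divides again and regains its form over days to weeks, and incomplete repair can leave fibrosis. Several families measured here are known from that setting, among them miR-21, which promotes renal fibrosis in mice, the miR-29 family, which represses collagens, and the miR-200 family, which keeps the epithelial state by repressing Zeb1 and Zeb2.

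The miRNAs whose values carry the comparison are given with the seed in capitals. The sequences are from RefSeq (rat assembly GRCr8), where 68 of the 79 names were matched. The miR-125 and miR-351 group is shown because its 3 members share a seed and all averaged higher in IRI.
miR-125a-5p: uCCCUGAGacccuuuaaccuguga
miR-125b-5p: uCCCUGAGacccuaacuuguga
miR-351-5p: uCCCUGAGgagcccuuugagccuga
The miR-29 group is shown because 1 member lay above sham and another below it.
miR-29b-3p: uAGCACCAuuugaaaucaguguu
miR-29a-3p: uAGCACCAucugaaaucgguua
miR-29c-3p: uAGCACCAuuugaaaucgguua
The let-7 members shown are those whose values are described by rat, from a family of 9 that took 51.6% to 60.5% of each library, and they differ from each other by few bases.
let-7c-5p: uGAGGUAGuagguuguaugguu
let-7b-5p: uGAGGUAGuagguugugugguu
let-7a-5p: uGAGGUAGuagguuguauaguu
let-7f-5p: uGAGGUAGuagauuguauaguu
let-7e-5p: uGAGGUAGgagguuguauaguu
The remaining sequences belong to miRNAs with separate seeds whose IRI and sham values did not overlap.
miR-21-5p: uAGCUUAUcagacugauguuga
miR-191a-5p: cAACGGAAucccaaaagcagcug
miR-34a-5p: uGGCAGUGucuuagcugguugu
miR-345-3p: cCCUGAACuaggggucuggaga
miR-23b-3p: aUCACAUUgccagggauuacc
miR-182: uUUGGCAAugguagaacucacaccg
miR-203a-3p: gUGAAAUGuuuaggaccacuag
miR-28-3p: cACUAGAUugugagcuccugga
miR-192-5p: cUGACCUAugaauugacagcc
miR-378a-3p: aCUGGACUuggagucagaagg

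Values are the authors' counts after a scaling that is not named, with sums of 874598 to 1080660 over the 6 libraries. They are called scaled values here. In each library they were whole multiples of 1 step, taken as the worth of 1 read. By this measure the listed miRNAs amounted to 651 to 1157 reads in the IRI libraries and 666 to 1796 reads in the sham libraries. A single read was worth 921 to 1343 in IRI and 547 to 1468 in sham, so a value of 0 allows up to 3 reads, or 4030 and 4403 in the shallowest library of each group. These limits cover counting error only. The miRNAs above 0 numbered 63 to 70 in IRI libraries and 60 to 73 in sham libraries (exact permutation test, two-sided, p = 0.8). The design of 3 against 3 cannot give a permutation p below 0.1. Sequencing lane was largely tied to surgery. IRI rats 1 and 13 were in lanes 2 and 5, which held no sham library of this day, and sham rats 6 and 9 were in lane 4. Only lane 3 held both, IRI rat 2 and sham rat 3, so lane and surgery cannot be told apart for the other 4 libraries.

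The miRNA markers of the tissue were checked first. All 7 of 7 markers of simple and tubular epithelium were listed (the 5 members of the miR-200 family, miR-192-5p and miR-194-5p), and their summed share was 3.79% ± 1.44 in IRI and 5.09% ± 1.31 in sham (SD, n = 3 per group). None of 6 leukocyte markers, 2 endothelial markers, 5 markers of smooth muscle and stroma and the hepatocyte marker miR-122-5p was among the 79. Of 5 erythroid markers only miR-16-5p, which most cells express, was listed, and of 3 markers of striated muscle only miR-206-3p. Both markers of squamous and urothelial epithelium, miR-203a-3p and miR-205, were listed, with a summed share of 0.087% ± 0.0864 in IRI and 0.448% ± 0.166 in sham, and 0 to 2 against 2 to 11 reads. In such samples fewer exosomes from a cell type and fewer copies of a miRNA per exosome cannot be told apart.

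Across all 79 miRNAs no difference passed the threshold of an adjusted p of 0.05 in limma on the log2(value + 500) scale (0 calls, 0% of those tested), and the lowest adjusted p was 0.0693. Log2 fold changes are IRI over sham on this scale, with their standard error (SE). The constant is smaller than the worth of 1 read in every library, so the size for low miRNAs depends on it. Libraries at 0 can also turn the sign away from the ratio of means, as for miR-29c-3p (log2 fold change 0.46, ratio of means 0.903). At an unadjusted p under 0.05 limma gave 9 miRNAs, 11.4% of those tested. Of these, 5 were higher in IRI (6.33%): miR-351-5p, miR-345-3p, miR-191a-5p, miR-34a-5p and miR-125a-5p. The other 4 were lower in IRI (5.06%): miR-23b-3p, miR-182, miR-203a-3p and miR-28-3p. Calls at the adjusted threshold under other settings numbered 0 to 4 and are given in the closing section, with the miRNAs that passed in each. The log2 fold changes ran from -2.92 to 3.57, 37 above 0 and 42 below, with a median of -0.09.

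Without any model, 18 of 79 miRNAs (22.8%) had IRI and sham values that did not overlap. All IRI libraries lay above all sham libraries for 9 (11.4%) and below them for 9 (11.4%). All 9 miRNAs with an unadjusted p under 0.05 were among these 18. The gap between the nearest IRI and sham libraries was worth 1 read or less for 8 of the 18 and over 3 reads for 5, which were miR-378a-3p, miR-125a-5p, let-7a-5p, miR-21-5p and miR-182.

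**Figure D1:**
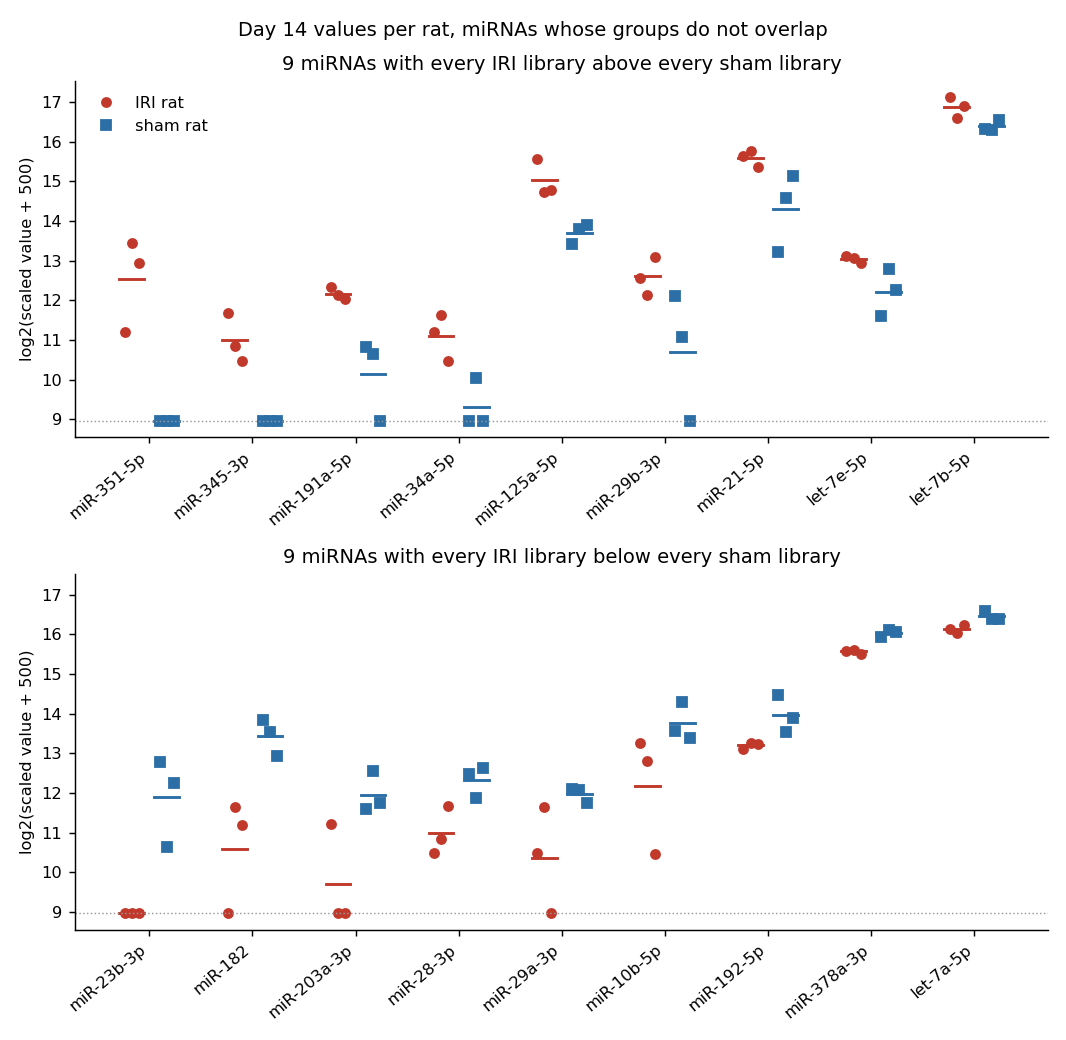
Log2(scaled value + 500) of the 18 miRNAs whose groups did not overlap, 1 red circle per IRI rat and 1 blue square per sham rat, with group means as bars and the level of a value of 0 as a dotted line. miR-351-5p and miR-345-3p sat on the dotted line in all 3 sham libraries and miR-23b-3p in all 3 IRI libraries, while let-7b-5p, let-7a-5p and miR-378a-3p were separated at high levels by small distances.

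The largest log2 fold change upward was that of miR-351-5p, and the miR-125 and miR-351 group as a whole was higher in every IRI rat. miR-351-5p, a rodent miRNA of the cluster of miR-322, miR-351 and miR-503 that has the miR-125 seed, was at 1868, 10748 and 7366 in IRI rats 1, 2 and 13 (2, 8 and 8 reads) and at 0 in sham rats 3, 6 and 9. It was thus seen in every IRI library and in no sham library. Against the worth of 3 reads per sham library, 3313 on average, the IRI mean was 2.01-fold higher. This ratio counts no error of the IRI mean, and IRI rat 1 lay under that worth. The log2 fold change was 3.57 ± 0.65 (SE, limma adjusted p = 0.0693), a size that depends on the constant of 500. The adjusted p ranged from 0.00704 to 0.261 over all settings, so the side of the threshold was decided by the setting.

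miR-125a-5p, which is made from 1 transcript with miR-99b and let-7e, was at 47635, 26870 and 27624 in IRI rats 1, 2 and 13 and at 10381, 13680 and 14678 in sham rats 3, 6 and 9. The lowest IRI library stood well above the highest sham library, by the worth of over 8 reads (8.31). The difference rested on 20 to 51 reads in IRI libraries and 8 to 25 in sham libraries, so it was not a matter of zeros. The log2 fold change was 1.33 ± 0.46 (SE, limma adjusted p = 0.22), with a 95% interval of 0.25 to 2.40. In lane 3 alone the difference was also 1.33. With a variance trend on intensity the adjusted p was 0.0357, and over all settings it ran from 0.0186 to 0.543. The third member, miR-125b-5p, was at 0, 2687 and 3683 in IRI rats and at 0, 2189 and 0 in sham rats, which overlap.

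As a sum, the miR-125 and miR-351 family took 4.58%, 4.61% and 3.71% of the libraries of IRI rats 1, 2 and 13 and 1.13%, 1.61% and 1.5% of those of sham rats 3, 6 and 9. The lowest bound of the 95% Wilson intervals in IRI was 2.75% and the highest in sham was 2.74%, for counting error only. The means were 4.30% ± 0.513 in IRI and 1.41% ± 0.256 in sham (SD, n = 3 per group, exact permutation test, two-sided, p = 0.1, adjusted p = 0.286 over 20 sums). Of the 20 family and cluster sums, 7 were at this smallest p, and since the design cannot go below 0.1, no sum could pass a threshold of 0.05. The study itself picked miR-125a-5p and miR-351-5p from these rats, so their difference is not independent evidence of that choice.

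The 3 miRNAs of the cluster of miR-99b, let-7e and miR-125a, neighbours on rat chromosome 1 in GRCr8 within 643 bases, all averaged higher in IRI. let-7e-5p was at 8406, 8061 and 7366 in IRI rats and at 2595, 6566 and 4403 in sham rats, a separation worth less than 1 read (0.869). Its log2 fold change was 0.83 ± 0.47 (SE, limma adjusted p = 0.596), 0.52 without sham rat 3 and 1.47 in lane 3 alone. miR-99b-5p was at 4670, 1343 and 4604 in IRI rats and at 2595, 1094 and 0 in sham rats, which overlap, and within lane 3 it was lower in the IRI rat (-0.75 on the log2 scale). Together the 3 made up 4.52% ± 0.967 of IRI libraries and 1.94% ± 0.242 of sham libraries (SD, n = 3 per group, exact permutation test, p = 0.1, adjusted p = 0.286), most of it miR-125a-5p. The related cluster of miR-99a, let-7c and miR-125b took 25.3% ± 3.32 in IRI and 21.5% ± 6.85 in sham, and these overlapped (exact permutation test, p = 0.6).

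**Figure D2:**
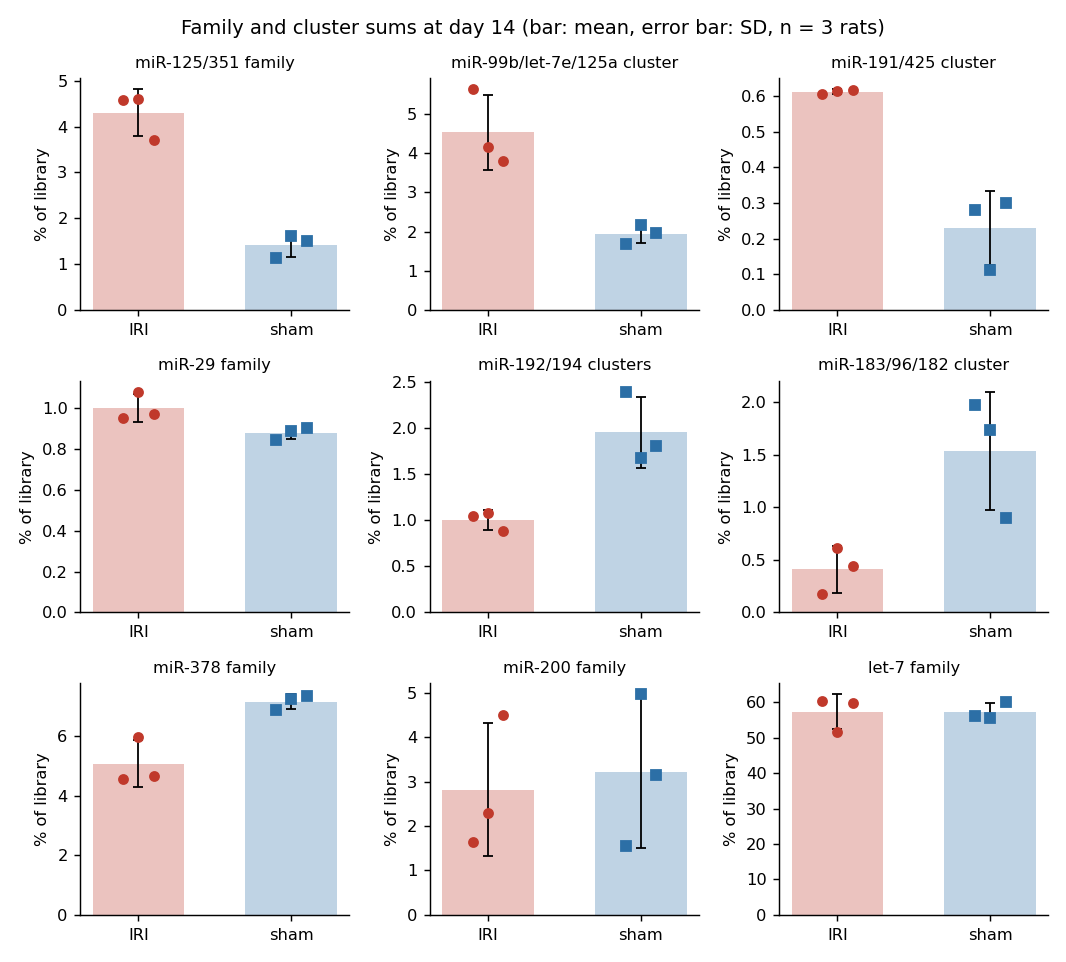
Percent of each library taken by the listed members of 9 families or clusters, IRI left and sham right in each panel, with bars for means, error bars for SD and points for the 3 rats of each group. The miR-125 and miR-351 family and the clusters of miR-99b, let-7e and miR-125a and of miR-191 and miR-425 were higher in all 3 IRI rats. So was the miR-29 family, by 0.12 percentage points in the means. The clusters of miR-192 and miR-194 and of miR-183, miR-96 and miR-182 and the miR-378 family were lower in all 3, and the let-7 share averaged 57.3% in both groups.

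miR-21-5p, the abundant miRNA that injured tubules and fibroblasts induce in rodents, was at 50437, 55083 and 41436 in IRI rats 1, 2 and 13 and at 9083, 24076 and 35228 in sham rats 3, 6 and 9. The IRI rats were close together and the sham rats spread widely, with sham rat 9 near the IRI values. The mean was 48985 ± 6938 in IRI and 22796 ± 13119 in sham (SD, n = 3 per group), a ratio of 2.15. The log2 fold change was 1.27 ± 0.59 (SE, limma adjusted p = 0.439), and without single rats it ranged from 0.73 (without sham rat 3) to 1.68. In lane 3 alone it was 2.54. It passed the threshold in limma with an intensity trend (adjusted p = 0.0357) and on the square root of reads (adjusted p = 0.0284).

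Fewer reads stood behind the other miRNAs that lay above sham. miR-191a-5p, a broadly expressed miRNA processed with miR-425, was at 4670, 4030 and 3683 in IRI rats and at 1298, 1094 and 0 in sham rats (3 to 5 against 0 to 2 reads). Its log2 fold change was 2.03 ± 0.60 (SE, limma adjusted p = 0.172), and 1.33 in lane 3 alone. Its cluster partner miR-425-5p was at 1868, 1343 and 2762 in IRI rats and 1298, 0 and 2936 in sham rats, which overlap. The pair took 0.612% ± 0.00661 in IRI and 0.231% ± 0.104 in sham (exact permutation test, p = 0.1, n = 3 per group), from 4 to 7 reads against 2 reads in each library.

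miR-34a-5p, a direct transcriptional target of p53, was at 1868, 2687 and 921 in IRI rats and at 0, 547 and 0 in sham rats. These are 1 or 2 reads against 0 or 1, and the lowest IRI and the highest sham value were both a single read. The log2 fold change was 1.79 ± 0.54 (SE, limma adjusted p = 0.172). The other listed p53-linked miRNAs, miR-192-5p and miR-194-5p, had lower means in IRI. miR-345-3p was at 2802, 1343 and 921 in IRI rats and at 0 in all 3 sham rats, and both groups lay under the worth of 3 reads, so no fold is given. Its adjusted p was 0.0977 in limma and ranged from 0.00704 to 0.306 over the settings.

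Of the miRNAs below sham, miR-182 had the largest difference on more than a few reads. It belongs to the cluster of miR-183, miR-96 and miR-182, known from sensory cells in mice. It was at 0, 2687 and 1842 in IRI rats 1, 2 and 13 and at 14273, 11491 and 7339 in sham rats 3, 6 and 9 (0 to 2 against 5 to 21 reads). Every sham library held more reads of it than any IRI library, although the libraries of IRI rats 1 and 13 were deeper than those of sham rats 3 and 9. The mean was 1510 ± 1374 in IRI and 11034 ± 3489 in sham (SD, n = 3 per group), a ratio of 0.137. The log2 fold change was -2.85 ± 0.77 (SE, limma adjusted p = 0.146), and in lane 3 alone it was -2.21. The adjusted p was under 0.05 with the constant of 2000 (0.0458), with the intensity trend (0.0357) and on the square root of reads (0.0186). With its neighbour miR-183-5p it took 0.41% ± 0.223 of IRI libraries and 1.53% ± 0.56 of sham libraries (SD, n = 3 per group, exact permutation test, p = 0.1, adjusted p = 0.286). miR-183-5p itself overlapped between the groups, at 1868, 2687 and 2762 in IRI rats and 3893, 5472 and 1468 in sham rats.

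miR-23b-3p, made from 1 transcript with miR-27b and miR-24, was at 0 in IRI rats 1, 2 and 13 and at 6488, 1094 and 4403 in sham rats 3, 6 and 9 (5, 2 and 3 reads). Against the worth of 3 reads per IRI library, 3198 on average, the sham mean of 3995 was 1.25-fold higher. This ratio counts no error of the sham mean, and sham rat 6 lay under that worth. The log2 fold change was -2.92 ± 0.62 (SE, limma adjusted p = 0.0885). The adjusted p was 0.00875 with a constant of 50 and 0.0326 without sham rat 6. miR-27b-3p was at 2802, 5374 and 921 in IRI rats and 12976, 7113 and 2936 in sham rats, and miR-24-3p at 0, 5374 and 1842 in IRI rats and 12976, 1094 and 2936 in sham rats. Both averaged lower in IRI with overlap, by -1.23 ± 0.74 (SE) and -1.14 ± 1.11 (SE) on the log2 scale. miR-24-3p also has a gene on chromosome 19, so its reads need not come from this transcript. The remaining listed member, miR-27a-5p, went the other way, at 1868, 0 and 2762 in IRI rats and 0, 547 and 0 in sham rats. Its log2 fold change was 1.29 ± 0.79 (SE), with overlap. The 4 listed members of the clusters of miR-23, miR-27 and miR-24 took 0.73% ± 0.435 in IRI and 1.86% ± 1.44 in sham (exact permutation test, p = 0.3, n = 3 per group).

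The tubular miRNA miR-192-5p was at 8406, 9404 and 9208 in IRI rats and at 22059, 11491 and 14678 in sham rats, so the IRI rats lay close together under all 3 sham rats. Its log2 fold change was -0.75 ± 0.44 (SE, limma adjusted p = 0.596), and -1.19 in lane 3 alone. With miR-194-5p and miR-194-3p, which have a gene beside it in GRCr8, it took 0.998% ± 0.102 in IRI and 1.95% ± 0.384 in sham (SD, n = 3 per group, exact permutation test, p = 0.1, adjusted p = 0.286). miR-194-5p also has a gene on chromosome 13, so its reads need not come from this cluster. miR-378a-3p, encoded in an intron of Ppargc1b, was at 48569, 49709 and 46040 in IRI rats and at 62284, 70586 and 67520 in sham rats. The separation was worth 9.36 reads, the widest of the 18, although the log2 fold change was only -0.47 ± 0.40 (SE, limma adjusted p = 0.697). Its mean was 48106 ± 1878 in IRI and 66797 ± 4198 in sham (SD, n = 3 per group), a difference larger than either SD. The reads behind it were 52, 37 and 50 in IRI rats and 48, 129 and 46 in sham rats. In limma part of the variance is shared over all 79 miRNAs. With miR-378b the family took 5.08% ± 0.788 in IRI and 7.16% ± 0.242 in sham (exact permutation test, p = 0.1, adjusted p = 0.286).

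miR-203a-3p, which drives epidermal differentiation in mice, was at 1868, 0 and 0 in IRI rats and at 2595, 5472 and 2936 in sham rats (0 to 2 against 2 to 10 reads). Its log2 fold change was -2.25 ± 0.72 (SE, limma adjusted p = 0.192). The summed share of its marker list, with miR-205, was lower in IRI as given above, and whether fewer exosomes of such epithelium had a part in this was not tested. miR-203b-3p was instead at 2802, 1343 and 0 in IRI rats and 0, 547 and 0 in sham rats. miR-28-3p was at 934, 1343 and 2762 in IRI rats and at 5190, 3283 and 5871 in sham rats (1 to 3 against 4 to 6 reads), a separation worth 0.566 of a read. Its log2 fold change was -1.33 ± 0.50 (SE, limma adjusted p = 0.294). At days 1, 2 and 7 it was -0.43, -2.56 and 1.22, and at day 3 the miRNA was not listed. miR-10b-5p, of the Hoxd gene cluster, was at 9340, 6717 and 921 in IRI rats and at 11678, 19699 and 10275 in sham rats. The lowest of these was 1 read in IRI rat 13, and without single rats the log2 fold change of -1.57 ± 0.79 (SE, limma adjusted p = 0.53) ranged from -2.11 to -0.72, the last without IRI rat 13. In lane 3 alone it was -0.75. Its relative miR-10a-5p, of the Hoxb cluster, overlapped, at 28955, 16122 and 26703 in IRI rats and 20761, 27359 and 13210 in sham rats.

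Within the miR-29 family 2 members lay on opposite sides of sham, while the sum differed by 0.12 percentage points. miR-29b-3p was at 5604, 4030 and 8287 in IRI rats and at 3893, 1642 and 0 in sham rats, with a log2 fold change of 1.90 ± 0.83 (SE, limma adjusted p = 0.41). miR-29a-3p was at 934, 2687 and 0 in IRI rats and at 3893, 3830 and 2936 in sham rats, with a log2 fold change of -1.61 ± 0.71 (SE, limma adjusted p = 0.41). Neither separation was wide. Without sham rat 9 the value of miR-29b-3p was 1.02 and in lane 3 alone 0.04, and that of miR-29a-3p was -0.91 without IRI rat 13 and -0.46 in lane 3 alone. In both cases the nearest libraries held the same number of reads, 3 each for miR-29b-3p and 2 each for miR-29a-3p. The log2 ratio of miR-29b-3p to miR-29a-3p, chosen after the values were seen and given with no test, was 2.09, 0.51 and 4.14 in IRI rats and 0.00, -1.02 and -2.78 in sham rats. miR-29c-3p overlapped. It differs from miR-29a-3p by a single base (U10C, from the 5′ end, with miR-29c-3p given first), so reads may be split between these 2 in ways the counting decides. The family sum was 0.999% ± 0.0668 in IRI and 0.879% ± 0.0304 in sham (SD, n = 3 per group, exact permutation test, p = 0.1, adjusted p = 0.286), from 7 to 11 against 6 to 16 reads.

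The let-7 family, which Lin28 holds down in early cells and which represses Ras and Hmga2, was the bulk of both groups, at 57.3% ± 4.95 of IRI libraries and 57.3% ± 2.57 of sham libraries (SD, n = 3 per group, exact permutation test, p = 1.0). Its difference in means was 0.0572 percentage points. Within the family, let-7b-5p was at 141972, 99418 and 120626 in IRI rats and at 81747, 79889 and 95408 in sham rats, all IRI above all sham. let-7a-5p was at 70986, 67174 and 76427 in IRI rats and at 98616, 85360 and 85133 in sham rats, all IRI below all sham. Their log2 fold changes were 0.48 ± 0.41 (SE, limma adjusted p = 0.697) and -0.32 ± 0.40 (SE, limma adjusted p = 0.721), and in lane 3 alone 0.28 and -0.55.

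The log2 ratio of let-7b-5p to let-7a-5p, again chosen after the values were seen and not tested, was 0.99, 0.56 and 0.65 in IRI rats and -0.27, -0.09 and 0.16 in sham rats. let-7c-5p, the most abundant miRNA, was at 290481, 185400 and 281767 in IRI rats and at 137543, 199721 and 278885 in sham rats, which overlap, as did let-7f-5p at 118621, 76578 and 118784 in IRI rats and 186851, 153758 and 107151 in sham rats. Counted from the 5′ end with let-7c-5p given first, let-7c-5p and let-7b-5p differ by A17G and let-7c-5p and let-7a-5p by G19A. let-7f-5p and let-7a-5p differ by A12G. The split of reads among such members is therefore less certain than their sum.

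**Figure D3:**
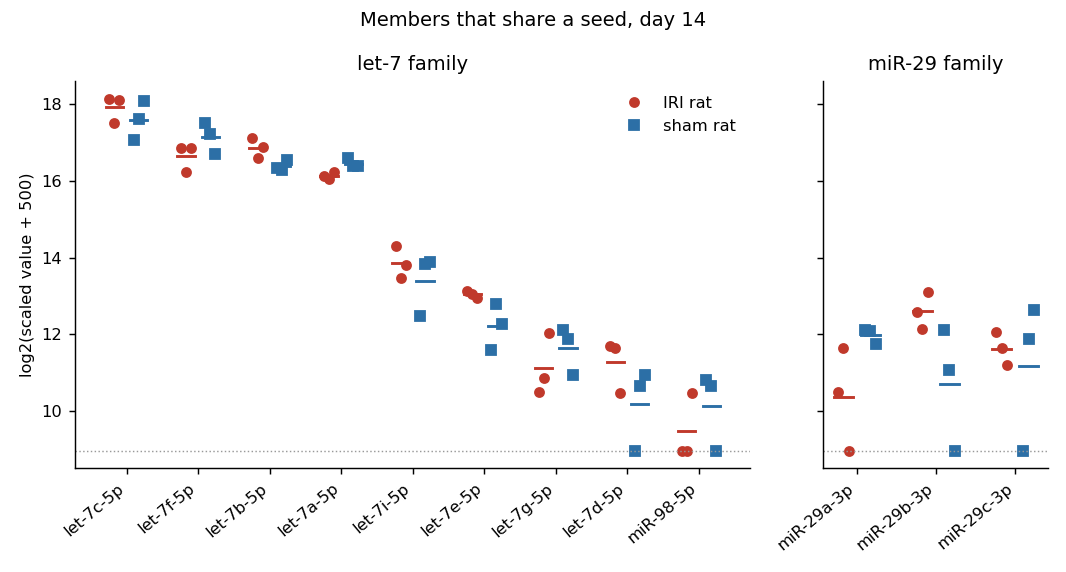
Log2(scaled value + 500) of the 9 let-7 members and the 3 miR-29 members, red circles for the 3 IRI rats and blue squares for the 3 sham rats, with group means as bars and the level of 0 dotted. let-7b-5p and let-7e-5p lay above sham and let-7a-5p below, and miR-29b-3p lay above sham while miR-29a-3p lay below, within families that share a seed.

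The miR-200 family, the group that the study followed at day 3 with miR-148a-3p, showed no separation at day 14. Its share was 2.82% ± 1.5 in IRI and 3.22% ± 1.71 in sham (SD, n = 3 per group, exact permutation test, p = 0.8). On the log2(value + 500) scale 4 of its 5 members were lower and miR-200c-3p was higher in IRI, with log2 fold changes from -0.69 to 0.82 and overlap in each. miR-141-3p, the lowest on that scale through a library at 0, had nearly equal means of 5168 in IRI and 5069 in sham. miR-200a-3p, the most abundant, was at 13076, 8061 and 19337 in IRI rats and 10381, 19151 and 13210 in sham rats. miR-141-3p was at 0, 5374 and 10129 in IRI rats and 2595, 8208 and 4403 in sham rats, and miR-429 at 934, 1343 and 2762 in IRI rats and 0, 7113 and 4403 in sham rats. miR-200c-3p was at 1868, 1343 and 6446 in IRI rats and 0, 2736 and 2936 in sham rats. miR-148a-3p was at 3736, 1343 and 9208 in IRI rats and 2595, 5472 and 13210 in sham rats. miR-9a-5p, the remaining member of that day 3 group, was not listed at day 14. Of the miRNAs named for the early injury, miR-16-5p was at 21483, 20152 and 14733 in IRI rats and 15571, 13680 and 10275 in sham rats, and its values also overlapped (log2 fold change 0.50 ± 0.43, limma adjusted p = 0.697). miR-26a-5p was among the steadiest abundant miRNAs, at 23351, 18809 and 21179 in IRI rats and 22059, 24623 and 20549 in sham rats. miR-30a-5p, the most abundant miR-30 member, was at 13076, 16122 and 18416 in IRI rats and 24654, 17510 and 11743 in sham rats, and the miR-30 family took 4.01% ± 1.25 in IRI and 3.97% ± 1.36 in sham.

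By role, the lists held miRNAs of both directions. Of 5 miRNAs grouped here as promoting fibrosis, miR-21-5p and miR-192-5p were listed, the first above all sham rats and the second below. The grouping was chosen with earlier results of these data known, and the role of its members in these rats was not tested. All 14 miRNAs grouped here as restraining fibrosis were listed (members of the miR-29, miR-200, miR-30 and let-7 families and miR-26a-5p). Of these, 7 were higher and 7 lower in IRI, with 0 at an unadjusted p under 0.05 in limma (11.4% over all 79). Their median log2 fold change was -0.02 (-0.09 over all 79). Of the p53-linked list 3 of 4 were listed, 1 higher and 2 lower. The hypoxia miRNA miR-210-3p was not among the 79.

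The remaining families overlapped between the groups. The miR-196 pair, encoded in Hox clusters, took 1.1% ± 0.804 in IRI and 0.508% ± 0.0895 in sham (SD, n = 3 per group, exact permutation test, p = 0.3). Shares in IRI and sham were 1.66% and 1.43% for the miR-181 family, 2.77% and 3.04% for the miR-26 family, and 0.607% and 0.914% for miR-148a-3p with its relatives miR-148b-3p and miR-152-3p. They were 3.36% and 3.83% for the miR-10 and miR-99 family, 0.57% and 0.91% for the miR-30 3p arms, 0.416% and 0.601% for the listed members of the miR-17 and miR-92 families, and 0.195% and 0.398% for the miR-203 pair. Their exact permutation p-values ran from 0.3 to 0.9.

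Abundant and rare miRNAs were compared by cutting the 79 into 27, 26 and 26 by their mean over all 6 libraries. The 27 abundant miRNAs held 88.4% of all values, with means from 5.5 to 236 reads per library, and only miR-182 had a library at 0. Their log2 fold changes were small, with a median size of 0.47 and a median standard error of 0.49, and 12 were higher and 15 lower in IRI. 9 of the 27 did not overlap between the groups, 4 above sham and 5 below, and 2 had an unadjusted p under 0.05, where over all 79 miRNAs 22.8% did not overlap and 11.4% had such a p. The 26 of the middle tier held 8.6% of all values. Their median size of change was 0.69 with a median standard error of 0.74, 6 did not overlap and 4 had such a p. The 26 rare miRNAs held 2.98%, averaged 0.5 to 2 reads per library, and all had at least 1 library at 0. Their median size of change was 0.93 with a median standard error of 0.73, 3 did not overlap and 3 had such a p.

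The abundant tier thus had both the smallest changes and the smallest errors, while the errors of the middle and the rare tier were alike. In the rare tier the median coefficient of variation was 0.913 in IRI and 0.947 in sham, where counting alone gives 1.0 in each. In the abundant tier it was 0.232 in IRI and 0.345 in sham, where counting gives 0.293 and 0.264. The 3 rare miRNAs whose groups did not overlap were miR-23b-3p, miR-345-3p and miR-34a-5p, and in each of them 1 group held at most 1 read in all. Of the 79 miRNAs, 16 were above 0 in only 3 libraries, among them miR-345-3p, miR-351-5p and miR-23b-3p.

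**Figure D4:**
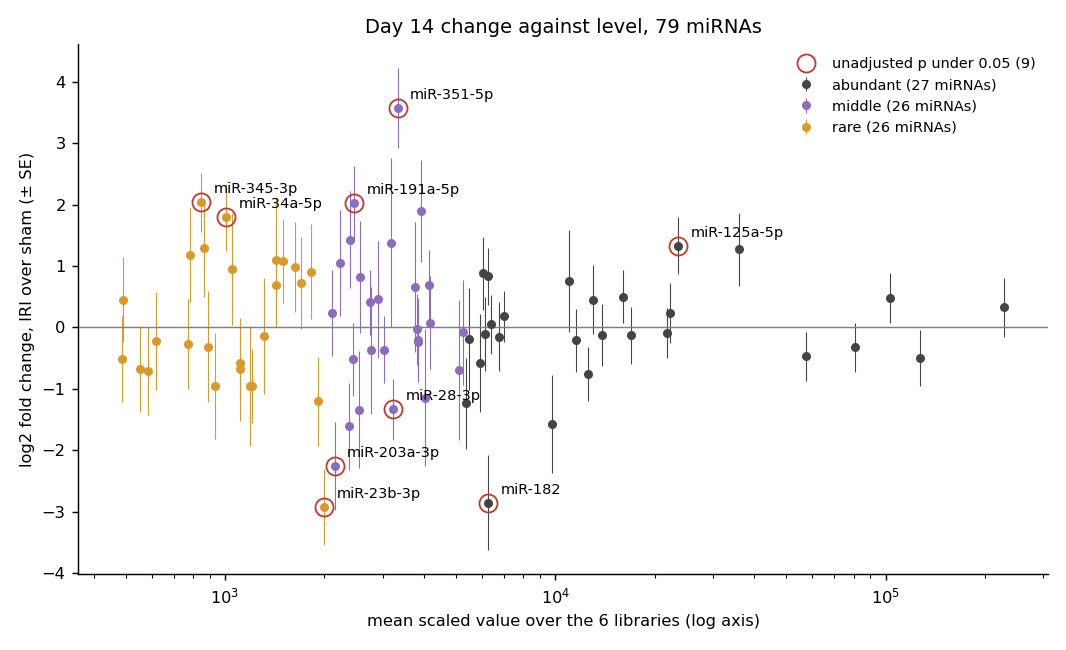
Log2 fold change of IRI over sham with its standard error against the mean scaled value over the 6 libraries (log axis) for the 79 miRNAs, coloured by tier, with the 9 of unadjusted p under 0.05 ringed. miR-125a-5p and miR-182 are the ringed miRNAs of the abundant tier, and the spread of the points widens toward low levels.

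The same rats on the other days are set beside day 14 for some of the miRNAs above. Each day was taken in its own table with its own scaling, and no test across days was made. miR-351-5p at day 7 was at 16246, 15885 and 4796 in IRI rats 1, 2 and 13 (8, 8 and 4 reads) and at 0 in sham rats 3, 6 and 9 (limma adjusted p = 0.0152). Against the worth of 3 reads per sham library of that day, 6703 on average, the IRI mean of 12309 was 1.84-fold higher. This ratio counts no error of the IRI mean, and IRI rat 13 lay under that worth. At days 1, 2 and 3 the values of miR-351-5p overlapped between the groups, with log2 fold changes of 0.42, 0.23 and -0.20. miR-23b-3p at day 7 was at 0 in all 3 IRI rats and at 3992, 3768 and 7275 in sham rats, which are 1, 3 and 5 reads (limma adjusted p = 0.0166). The sham mean of 5012 lay under the worth of 3 reads per IRI library of that day, 5216 on average, so no fold is given. At day 1 it was also lower in every IRI rat, at 332, 612 and 1204 in IRI rats and 2917, 2814 and 1873 in sham rats, while at days 2 and 3 the log2 fold changes were 0.63 and 0.20. The day 7 p-values of miR-351-5p and miR-23b-3p each rest on a group at 0 in every library. Other settings were not run at day 7. At day 14 the limma adjusted p of miR-23b-3p ran from 0.00875 to 0.261 over the settings.

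miR-34a-5p at day 7 was at 2031, 5957 and 1199 in IRI rats and at 0 in the sham rats (limma adjusted p = 0.138). These are 1, 3 and 1 reads, under the worth of 3 reads per sham library, so no fold is given. miR-125a-5p at day 7 was at 16246, 29785 and 26380 in IRI rats and at 0, 28890 and 11640 in sham rats. Sham rat 3 was the shallowest library of that day, and the groups overlapped. miR-21-5p had log2 fold changes of 1.19, 1.08, 2.03 and 1.39 at days 1, 2, 3 and 7, beside 1.27 at day 14. Its groups overlapped at days 1 and 2, where sham rat 9 was at 36522 and 59686, and not at days 3 and 7. The limma adjusted p was 0.37, 0.639, 0.647 and 0.748 at days 1, 2, 3 and 7. miR-378a-3p had -1.32, -2.55, -2.31 and -1.16 at these days, beside -0.47 at day 14, and every IRI rat was below every sham rat on each of the 5 days. miR-182 had 0.57, -1.12, 0.56 and -1.15, and at day 7 it was at 2031, 1986 and 5996 in IRI rats and 11977, 10049 and 2910 in sham rats.

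**Figure D5:**
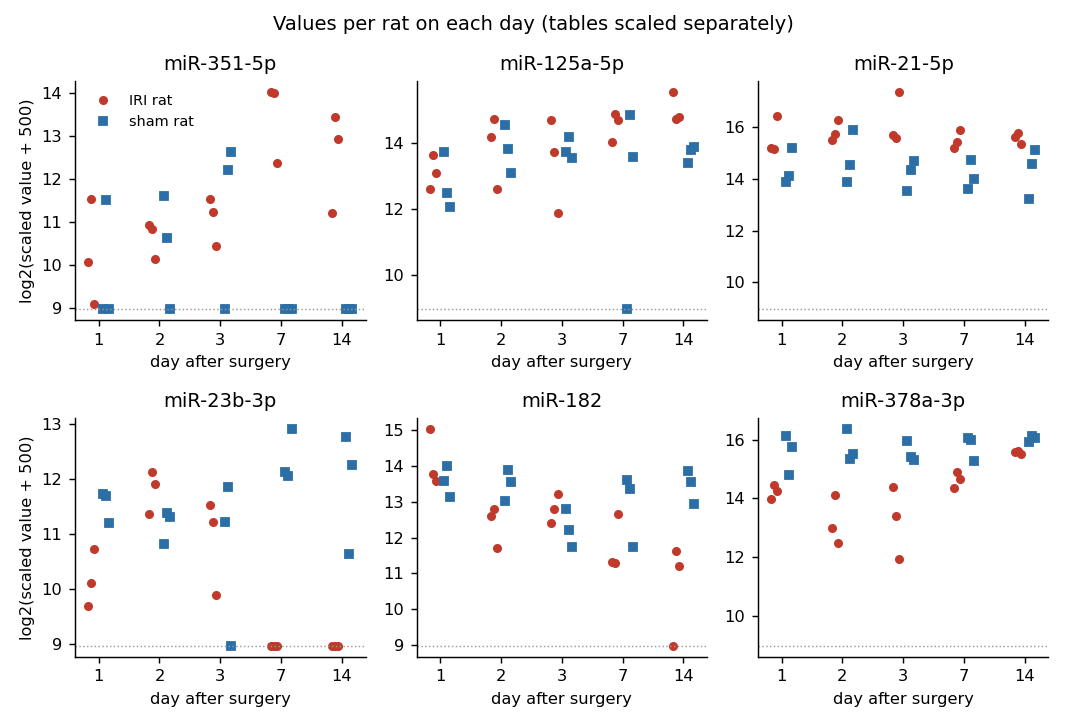
Log2(scaled value + 500) of 6 miRNAs at days 1, 2, 3, 7 and 14, red circles for the 3 IRI rats and blue squares for the 3 sham rats, with the level of 0 dotted and each day scaled on its own. miR-351-5p was at 0 in all sham rats at days 7 and 14, miR-23b-3p was at 0 in all IRI rats at the same days, and miR-378a-3p was lower in every IRI rat on each day.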

How the data were processed

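Small RNA of rat urinary exosomes was sequenced by the authors after library preparation with a miRNA kit. Per the methods and the labels, adaptors were trimmed with Cutadapt, alignment to the rat genome (version 5) used Bowtie and miRDeep2, and HTSeq made the counts, all within the CAP-miRseq pipeline. Versions and options, and whether molecular identifiers were used, are not given in the sources used here. The deposited signal values are these counts as scaled by the authors and rounded. The scaling is not named. The deposited tables also hold the authors' fold changes, mean levels, test statistics and p-values, which were not used. No column of another sample was found (0).

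Values were taken as log2(value + 500) and IRI was compared with sham by limma 3.58.1 (lmFit, eBayes; R 4.3.3). P-values were adjusted by Benjamini-Hochberg over all 79 miRNAs, with a threshold of 0.05 and no further filter. In each library 1 read was given the value of the step that divides the low values (up to 20 reads) into whole numbers within 0.1, which held for all of them. The listed reads, 651 to 1796 per library, set the precision. A count model was not used as the values are scaled. Floors are 3 reads per library, averaged over a group. Family sums were tested by exact permutation, two-sided, with adjustment over 20 sums. Python 3.11.15, NumPy 2.4.6 and pandas 2.3.3 were used. The fit was also run on simulated counts with the same dispersion for all miRNAs and no lane effect. The outcome is not given and nothing here rests on it. Libraries of each table were checked for identical values and 0 shared them all. The replicate is the rat (3 per group).

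miRNAs are named by a rule: those with an unadjusted p under 0.05 or no overlap, the 10 with the highest mean, those the study names, and members of 36 lists of families, clusters, roles and cell type markers. The members, lists and tests were chosen with earlier results of these data known. Alternatives were other constants, a filter, other scalings, an intensity trend, the square root of reads, leaving out each rat, and lane 3 alone. Genome coordinates are not given, since the reference is another assembly than the authors used.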

Additional observations from a re-analysis of the deposited data

Results flagged for a closer look

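For 3 miRNAs every IRI rat lay on 1 side of every sham rat at day 14 and on the opposite side at another day, with the same 6 rats on both days. The difference between the days was not tested, since the tables were scaled separately. let-7b-5p was above sham at day 14, and at day 2 it was at 68336, 29783 and 60125 in IRI rats and 86319, 70531 and 128292 in sham rats (log2 fold change -0.88). miR-191a-5p was above sham at day 14, and at day 3 it was at 2470, 3772 and 748 in IRI rats and 6601, 4269 and 5803 in sham rats (log2 fold change -1.25). miR-29a-3p was below sham at day 14, and at day 1 it was at 4983, 4210 and 4156 in IRI rats and 1459, 2010 and 3746 in sham rats (log2 fold change 0.84). In reads, the nearest libraries held 4 each for miR-191a-5p at day 3 (IRI rat 2 and sham rat 6), a gap worth 0.466 of a read. The gap of miR-29a-3p at day 1 was worth 0.438 of a read in sham rat 9, which held 4 reads, and at day 14 its gap was worth 0.17 of a read. That of let-7b-5p at day 2 was worth 4.05 reads.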

How the results depend on the processing

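The count of miRNAs with an adjusted p under 0.05, 0 as reported, was 3 with a constant of 50 (miR-351-5p, miR-23b-3p and miR-345-3p), 2 with a constant of 2000 (miR-182 and miR-351-5p), 1 with libraries centred on their median (miR-351-5p), 4 with an intensity trend and 4 on the square root of reads. The last 2 settings called miR-182, miR-351-5p, miR-125a-5p and miR-21-5p alike. Leaving out single rats gave 0 to 1, miR-351-5p without IRI rat 1 and miR-23b-3p without sham rat 6. At a threshold of 0.1 the count was 3. Restricted to the 58 miRNAs above 0 in at least 5 libraries, 4 had an unadjusted p under 0.05, 2 higher and 2 lower, fewer in part because miRNAs at 0 in a whole group were left out. On the square root of reads 7 were lower at that p. The number of miRNAs without overlap, 18 as reported, was 21 to 29 when single rats were left out, 28 without IRI rat 2 and 29 without sham rat 9. Leaving out a rat can only keep or raise this number. The difference in miRNAs above 0 per library (IRI minus sham), 2.33 as reported, was 0.0 to 6.5 without single rats. Among the 18 named miRNAs without overlap, 265 values under other settings kept the sign of the log2 fold change, and 16 of them passed the adjusted threshold that the reported value missed. With constants of 50 and 2000, within single lanes or without single rats that sign is set by the choice of miRNAs without overlap. The filter and the intensity trend leave the log2 fold change itself unchanged. The kept signs under these settings are therefore not a test. No paired analysis was possible because the IRI and sham rats are different animals that share no number at day 14. Depth limits the comparison, with 1 read worth up to 1468 in a library, and a value of 0 allows up to 3 reads. Lane is nearly confounded with surgery. The rats are those of the other days, and the split of reads between members that differ by 1 base is uncertain.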
